A study of Mus musculus with 7 samples.

Results

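The enzymes around Ddah1 that make, use and break down arginine and its methylated form were followed in mammary glands of mice that ate conjugated linoleic acid (CLA), the name for isomers of linoleic acid in which the double bonds are conjugated. The set was chosen by gene name and holds 10 genes, Ddah1, Ddah2, Prmt1, Nos1, Nos2, Nos3, Arg1, Arg2, Ass1 and Asl, of the 18193 genes that the array measures with probe sets of 1 gene symbol. Ddah1 itself was taken from this comparison, because it was among the 10 genes of smallest p with higher signal in CLA glands and separate groups, so its difference is given as a description without a p-value. The other 9 genes were added for their place in the pathway, with earlier results of these data known.

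All mice were virgin FVB females that carried PyV-MT, the middle T oncogene of polyoma virus, under which mammary tumours develop; the labels name no promoter for the transgene. The study asked how CLA in the diet bears on fatty acid synthase and tumour formation in these mice. From 4 weeks of age the CLA group (4 arrays) ate chow with 1% CLA for 4 weeks, and the control group (3 arrays) ate AIN93G chow. Glands were collected at 8 weeks of age, and each array holds the RNA of a mouse. The values are MAS5 signal intensities of Affymetrix arrays, on a linear scale with a trimmed mean of 500.003 on every array.

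Nitric oxide synthases oxidise arginine to nitric oxide and citrulline. Asymmetric dimethylarginine (ADMA), which is released when methylated proteins are degraded, competes with arginine and inhibits these synthases. Dimethylarginine dimethylaminohydrolase, the product of Ddah1, removes ADMA, while arginases draw on the same arginine to make ornithine and urea, and argininosuccinate synthase and lyase return citrulline to arginine.

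The start regions of Ddah1, of its paralogue Ddah2 and of Prmt1, the main maker of asymmetric dimethylarginine in proteins, are shown because these 3 genes had the largest positive changes of the set. Each runs 5′ to 3′ on the strand of the gene, from 250 bases before its RefSeq start to 50 bases after it (assembly GRCm38.p6). Capitals mark each GC box, the letters GGGCGG on either strand. They lie at chr3:145758442-145758741 (plus strand) for Ddah1, chr17:35058785-35059084 (plus strand) for Ddah2 and chr7:44986371-44986670 (minus strand) for Prmt1.
Ddah1: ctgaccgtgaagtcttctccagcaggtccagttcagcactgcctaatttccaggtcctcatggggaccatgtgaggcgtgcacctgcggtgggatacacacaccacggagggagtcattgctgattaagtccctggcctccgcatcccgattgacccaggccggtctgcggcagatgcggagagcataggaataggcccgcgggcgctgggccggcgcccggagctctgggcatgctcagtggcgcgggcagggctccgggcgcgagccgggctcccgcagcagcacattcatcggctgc
Ddah2: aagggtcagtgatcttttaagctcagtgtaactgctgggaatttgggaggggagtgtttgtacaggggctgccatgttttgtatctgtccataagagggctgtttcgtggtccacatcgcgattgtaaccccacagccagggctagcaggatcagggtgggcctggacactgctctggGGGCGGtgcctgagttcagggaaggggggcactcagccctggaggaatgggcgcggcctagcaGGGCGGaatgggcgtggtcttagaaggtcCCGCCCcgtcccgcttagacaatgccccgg
Prmt1: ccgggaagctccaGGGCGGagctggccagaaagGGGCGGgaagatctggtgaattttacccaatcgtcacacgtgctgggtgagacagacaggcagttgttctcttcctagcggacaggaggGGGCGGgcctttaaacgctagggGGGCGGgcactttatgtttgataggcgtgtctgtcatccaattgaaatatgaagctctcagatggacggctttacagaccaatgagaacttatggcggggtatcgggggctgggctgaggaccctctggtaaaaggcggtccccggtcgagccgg
The Ddah1 window has no GC box, that of Ddah2 has 3 and that of Prmt1 has 4, and 35.7% of 32851 RefSeq start regions of this length hold one. Ddah1 nevertheless has the highest GC content of the 3, 65.7% with 23 CpG dinucleotides, against 59.7% with 12 in Ddah2, 57.7% with 17 in Prmt1 and a median of 52.7% with 7 over all start regions. The other letters searched on both strands were CCAAT (in 37.4% of start regions), TATAAA (13.6%), CACGTG (7.15%), the sterol regulatory element core TCACNCCAC (1.24%) and AGGTCA repeated with 1 base between (0.0396%), the kind of repeat that PPAR receptors bind. Prmt1 has 3 CCAAT and 1 CACGTG, none overlapping another motif, and Ddah1 and Ddah2 have 0 of these 5 motifs. These are matches of letters, not binding sites.

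Ddah1 signal was 1195, 1288, 1086 and 1170 in CLA glands, against 720, 605 and 538 in control glands. Every CLA gland lay above every control gland, and the lowest CLA value was well clear of the highest control value. The means were 1185 ± 83 (SD, n = 4) in CLA glands and 621 ± 92 (SD, n = 3) in control glands, and the log2 change, CLA minus control, was 0.94 ± 0.15 (SE), or 1.92-fold. Highest and lowest values of a group differed by 1.19-fold in CLA glands and 1.34-fold in control glands, less than the difference between the groups. Because Ddah1 was chosen for a small p and separate groups, this separation is a description only. The titles carry experiment numbers, of which those of CLA replicate 1 and control replicate 1 start with 27 and the others with 28. These numbers are called the 27 and 28 series below. For Ddah1 the difference was 0.73 in the 27 series, which has 1 array a group, and 1.05 in the 28 series, and a fit with the series as a block gave 0.95.

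The array has 5 probe sets for Ddah1, all of them with a positive log2 change. The brightest is the one given above. The next in brightness had 659, 605, 638 and 628 in CLA glands, against 392, 321 and 292 in control glands, a log2 change of 0.93 ± 0.17 (SE). The third had 386, 345, 245 and 309 in CLA glands, against 241, 143 and 186 in control glands, a log2 change of 0.77 ± 0.26. On these probe sets the groups were separate, on the third by a narrow margin between CLA replicate 3 and control replicate 1. The remaining probe sets were dim and overlapped between groups. The brighter of them ran from 85.8 to 142 in CLA glands and from 48.1 to 90.0 in control glands (log2 change 0.82 ± 0.36). The dimmer ran from 54.6 to 157 in CLA glands and from 16.5 to 107 in control glands (0.91 ± 0.67).

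**Figure D1:**
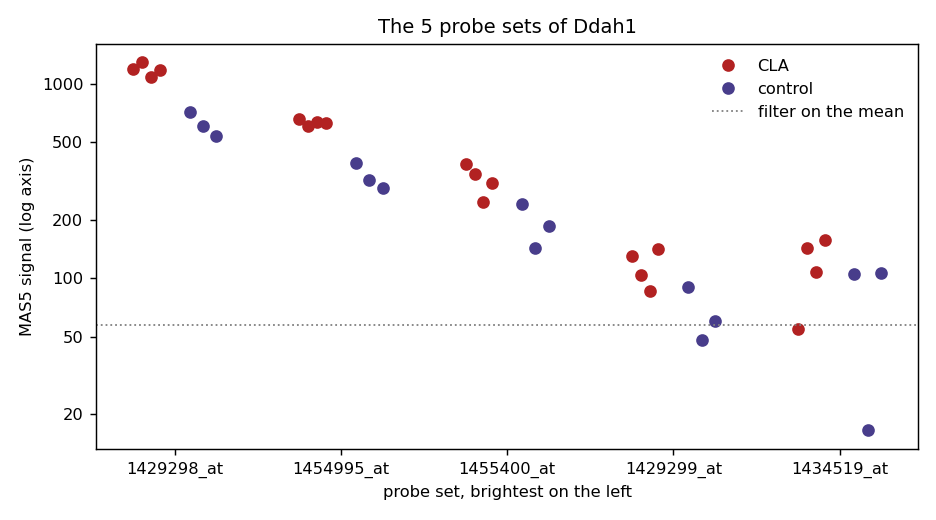
MAS5 signal (log axis) of each of the 5 Ddah1 probe sets, ordered by brightness, with a point for each of the 4 CLA arrays (red) and 3 control arrays (dark blue); the dotted line is the mean signal below which genes were not tested. The CLA points lie above the control points on the 3 brighter probe sets, from 1086 to 1288 against 538 to 720 on the brightest, and overlap on the 2 dim ones.

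Across all genes, limma called 0 of 12497 genes at an adjusted p under 0.05, which is 0% in either direction, and the smallest adjusted p was 0.294. Neither Ddah1 nor any other of the 10 genes therefore passed over all genes. An unadjusted p under 0.05 was found for 674 genes, 5.39% of those tested (2.38% higher and 3.01% lower in CLA glands), and the groups did not overlap for 664 genes, 5.31%, of which 2.64% were higher and 2.67% lower in CLA glands. Of the 10 genes 9 passed the filter on low signal, a mean of 57.7 over all arrays, and Nos2 did not. Of the 8 tested genes other than Ddah1, 0 passed over all genes, 3 had an unadjusted p under 0.05, Prmt1 and Ddah2 with higher and Nos3 with lower signal, and 2 had separate groups, Prmt1 and Nos3. These genes were chosen with earlier results of these data known, and the counts describe 8 genes only. Their median log2 change was 0.15, against 0.03 over all genes tested.

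**Figure D2:**
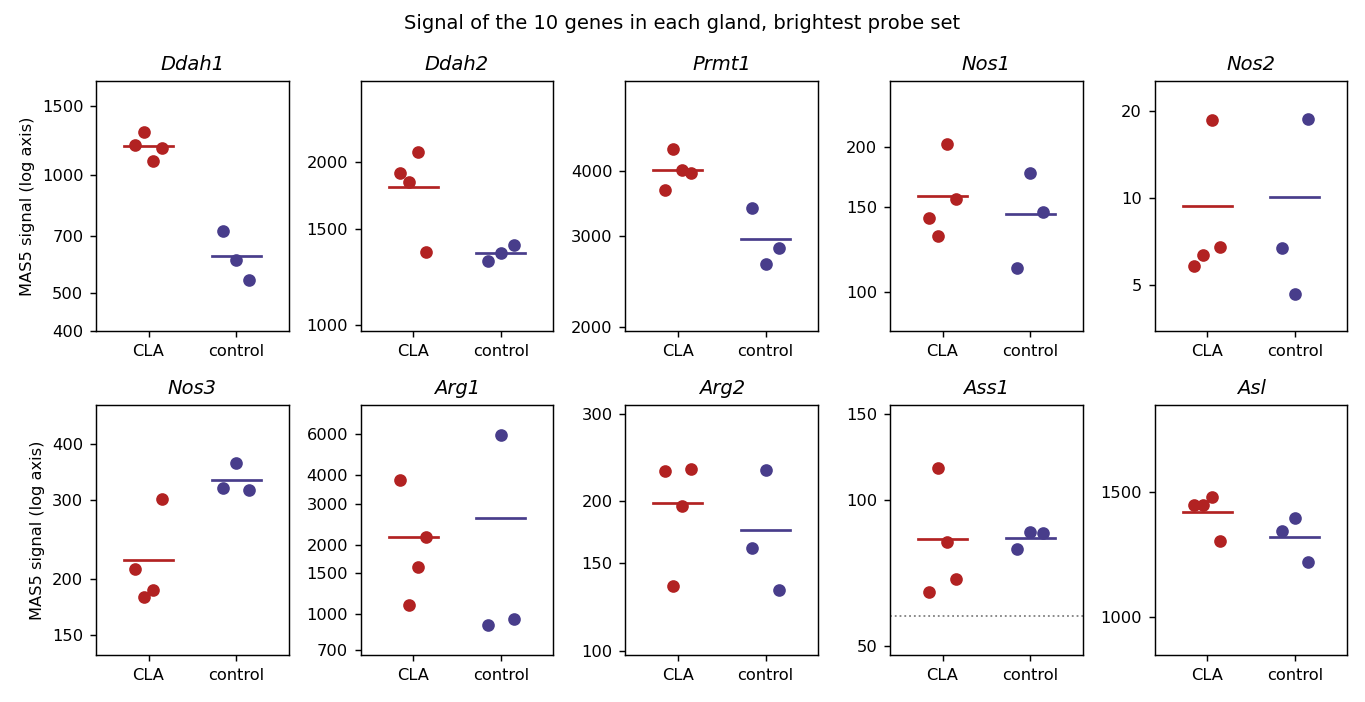
MAS5 signal (log axis, different range in each panel) of the brightest probe set of each of the 10 genes, with a point for each array, CLA in red on the left and control in dark blue on the right; bars are group means and the dotted line in the Ass1 panel is the filter signal of 57.7. Groups are separate for Ddah1, Prmt1 and Nos3, and overlap for the others.

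Ddah2, the paralogue of Ddah1, is measured by a single probe set. Its signal was 1910, 1839, 2089 and 1362 in CLA glands, against 1314, 1357 and 1406 in control glands. CLA replicates 1 to 3 lay above all control glands, and CLA replicate 4 lay within the control range. The means were 1800 ± 310 (SD, n = 4) in CLA glands and 1359 ± 46 (SD, n = 3) in control glands. The log2 change was 0.39 ± 0.17 (SE, 95% interval 0.02 to 0.76), with a limma adjusted p of 0.896. With an array left out it ran from 0.31 (without CLA replicate 3) to 0.52 (without CLA replicate 4). The change was 0.54 in the 27 series and 0.33 in the 28 series.

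Ddah1 and Ddah2 did not move by the same amount on each array. The log2 ratio of Ddah1 to Ddah2, centred on its mean over the arrays, was 0.15, 0.31, -0.12 and 0.61 in CLA glands, against -0.04, -0.34 and -0.56 in control glands. CLA replicate 3, where Ddah2 was highest, lay within the control range of this ratio, and CLA replicate 4, where Ddah2 was lowest among CLA glands, had the highest ratio. The group difference of the ratio was 0.55, and it is given without a test because Ddah1 was chosen on these values.

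Prmt1 deposits the methyl groups that later appear as ADMA. Its signal was 3686, 4429, 4022 and 3969 in CLA glands, against 3404, 2655 and 2849 in control glands. The groups did not overlap, with control replicate 1 closest to the CLA glands. The means were 4026 ± 306 (SD, n = 4) in CLA glands and 2969 ± 389 (SD, n = 3) in control glands. The log2 change was 0.44 ± 0.13 (SE, 95% interval 0.15 to 0.74), or 1.36-fold, with a limma adjusted p of 0.703. The difference was 0.11 in the 27 series, 0.59 in the 28 series and 0.45 with the series as a block. The centred log2 ratio of Ddah1 to Prmt1 was 0.35, 0.19, 0.09 and 0.22 in CLA glands, against -0.26, -0.16 and -0.43 in control glands. This ratio too is a description, because Ddah1 was chosen on these values.

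The other arginine methyltransferases gave 0 calls over all genes. Of 5 other genes whose products form asymmetric dimethylarginine, 4 were tested and 0 passed, with positive log2 changes in all 4, from 0.11 to 0.17. Carm1, a coactivator that methylates histone H3, had 0.17 ± 0.21 (SE). Prmt6, also a histone methyltransferase, had 0.16 ± 0.19, with 175, 197, 185 and 200 in CLA glands, against 168, 171 and 170 in control glands. These Prmt6 groups were separate but close together. Prmt5, the main symmetric dimethylating enzyme, had 0.28 ± 0.22, and Prmt7, which adds single methyl groups, had 0.40 ± 0.19. Agxt2, a mitochondrial transaminase that also degrades ADMA, was below the filter.

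Nos3, the endothelial synthase, had lower signal in every CLA gland than in any control gland. Its signal was 211, 183, 189 and 302 in CLA glands, against 320, 364 and 316 in control glands. CLA replicate 4 came close to the lowest control gland while the other CLA glands lay far below. The means were 221 ± 55 (SD, n = 4) in CLA glands and 333 ± 26 (SD, n = 3) in control glands. The log2 change was -0.62 ± 0.22 (SE, 95% interval -1.12 to -0.12), or 1.54-fold lower, with a limma adjusted p of 0.834. It was -0.60 in the 27 series, -0.63 in the 28 series and -0.62 with the block, and leaving out CLA replicate 4 gave -0.78. On the centred log2 scale the ratio of Ddah1 to Nos3 was 0.72, 1.04, 0.74 and 0.17 in CLA glands, against -0.61, -1.05 and -1.01 in control glands, a difference of 1.56. It is a description only, because Ddah1 was chosen on these values and the groups of Nos3 were separate in the other direction.

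Markers of endothelium and fat are set beside Nos3 here. In bulk glands, fewer cells of a type and less RNA per cell cannot be told apart. Of 10 endothelial markers, all tested, 8 had a negative log2 change and 0 passed over all genes, with a median of -0.32. The groups were separate, CLA lower, for 3 of them, where 2.67% of all genes tested were so, namely the receptor tyrosine kinase gene Flt1 (-0.58), the adhesion gene Esam (-0.31) and the phosphatase gene Ptprb (-0.39). In the 27 series these 3 had differences of only -0.05, -0.12 and -0.02. The adhesion gene Pecam1 (0.18), the angiopoietin receptor gene Tek (0.04) and the sialomucin gene Emcn (-0.05) were positive or near 0. The endothelial score was 0.01, -0.31, -0.00 and -0.15 in CLA glands, against -0.04, 0.34 and 0.16 in control glands, so it did not follow Nos3 on every array. Their summed signal ran from 3265 to 4178 in CLA glands and from 3920 to 4934 in control glands, and none was near 0, the dimmest, Erg, having a mean signal of 116. Relative to the mean of these markers, centred Nos3 was -0.31, -0.20, -0.46 and 0.37 in CLA glands, against 0.34, 0.14 and 0.12 in control glands, so the groups overlapped through CLA replicate 4. Of 10 white adipocyte markers measured, 10 had a negative change and 0 passed, and their summed signal ran from 17634 to 39685 in CLA glands and from 50430 to 61384 in control glands. The adipocyte score, the mean centred log2 signal of these markers, was -0.92, -0.98, -0.89 and 0.27 in CLA glands, against 0.79, 1.00 and 0.73 in control glands. CLA replicate 4 thus stood between the other CLA glands and the control glands in both the adipocyte score and Nos3. The part of either marker list in the Nos3 difference was not tested.

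**Figure D3:**
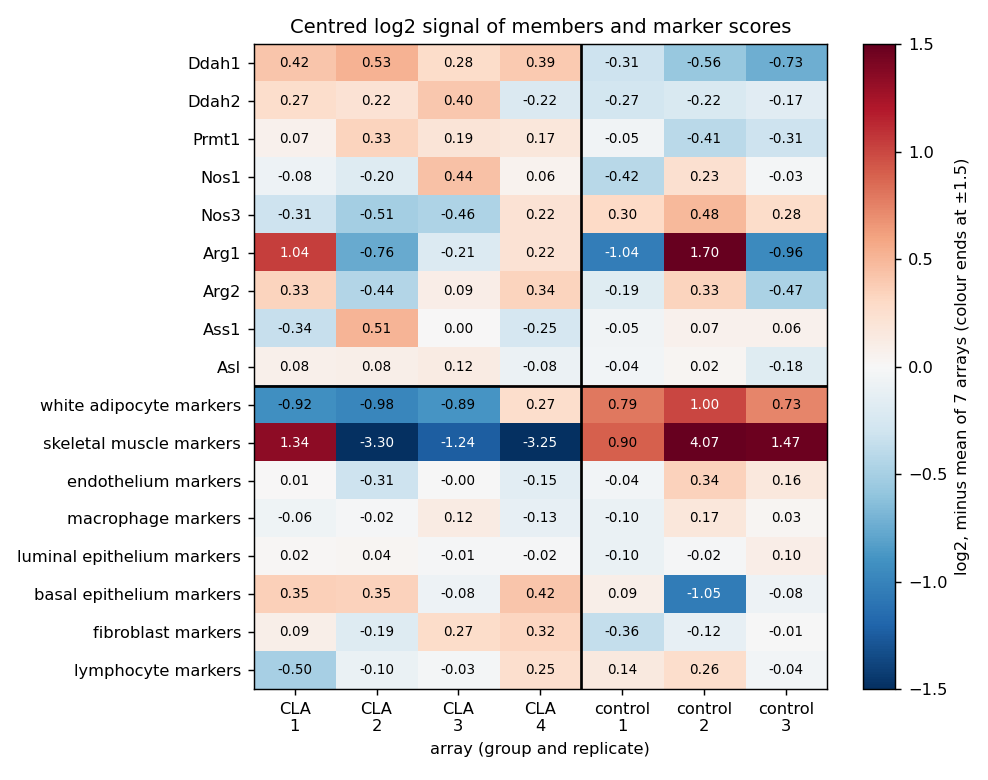
Log2 signal minus its mean over the 7 arrays for the 9 tested genes (upper rows) and mean of such values for 8 lists of cell type markers (lower rows), by array, CLA arrays on the left; red is higher and blue lower than the mean, and the colour ends at ±1.5. Ddah1 is positive on 4 of 4 CLA arrays and negative on 3 of 3 control arrays, and Arg1 is highest on control replicate 2 (1.70) and CLA replicate 1 (1.04).

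The other synthases gave little signal. Nos1, the synthase of neurons and skeletal muscle fibres, had 142, 131, 203 and 156 in CLA glands, against 112, 176 and 146 in control glands on its brightest probe set. The groups overlapped, and the log2 change was 0.13 ± 0.26 (SE, 95% interval -0.46 to 0.71), with a limma adjusted p of 0.997. The other 3 probe sets of Nos1 were below the filter and gave changes of -0.97, -0.85 and 1.52, in different directions. Skeletal muscle markers, in which control replicate 2 was highest, had summed signals from 667 to 15279 in CLA glands and from 10617 to 95409 in control glands, while Nos1 differed by 1.81-fold between its highest and lowest array. Nos2, the inducible synthase of activated macrophages, was far below the filter, with 5.82, 6.38, 18.7 and 6.78 in CLA glands, against 6.70, 4.67 and 18.8 in control glands. No difference of Nos2 was detectable at this signal. Macrophage markers had summed signals from 18335 to 22349 in CLA glands and from 19043 to 26787 in control glands, with positive changes in 6 of 10 and 0 past the test.

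Genes that serve the synthases gave 0 calls. Of 6 genes for the cofactor tetrahydrobiopterin, 5 were measured and tested. Gchfr, which encodes a feedback regulator of the first enzyme of cofactor synthesis, had 184, 149, 139 and 220 in CLA glands, against 253, 489 and 204 in control glands. Its log2 change was -0.78 ± 0.32 (SE, limma adjusted p of 0.878), and CLA replicate 4 overlapped control replicate 3. Qdpr, which regenerates the cofactor, had -0.21 ± 0.18. Of 10 genes for partners of the synthases 5 were tested. Among them Cav1, caveolin 1, which binds and restrains the endothelial synthase and is abundant in adipocytes and endothelium, had 2733, 1444, 2526 and 3274 in CLA glands, against 3793, 3758 and 3797 in control glands. Every CLA gland was below every control gland, and CLA replicate 4 was again the closest. The log2 change of Cav1 was -0.66 ± 0.24 (limma adjusted p of 0.855). Nos1ap, an adaptor of the neuronal synthase, had -0.11 ± 0.20. Downstream of nitric oxide, 5 of 7 genes of cyclic GMP signalling and related steps were tested, with Gucy1a1, a subunit of the nitric oxide receptor, at -0.22 ± 0.25 and the kinase gene Prkg1 at -0.20 ± 0.22.

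Arg1 varied between arrays more than any other tested gene of the set, and its groups overlapped. Arg1, the cytosolic arginase, had 3791, 1089, 1594 and 2147 in CLA glands, against 898, 5975 and 950 in control glands. The highest and the lowest array both belonged to the control group, and they differed by 6.66-fold. The log2 change was 0.17 ± 0.64 (SE, 95% interval -1.27 to 1.62), with a limma adjusted p of 0.997. It was 2.08 in the 27 series and -0.62 in the 28 series, so its direction rested on single arrays. Without CLA replicate 1, control replicate 1 or control replicate 3 it was -0.15, -0.30 and -0.26, and without control replicate 2 it was 1.07. Arg2, the mitochondrial arginase, had 231, 135, 196 and 232 in CLA glands, against 161, 231 and 132 in control glands. Its log2 change was 0.19 ± 0.28 (limma adjusted p of 0.996), with a 95% interval from -0.45 to 0.82, and its second probe set, dimmer, had -0.02 ± 0.29. CLA replicates 1, 3 and 4 and control replicate 2 were the 4 highest arrays for both arginases, and CLA replicate 2 and control replicates 1 and 3 the 3 lowest. The macrophage score was -0.06, -0.02, 0.12 and -0.13 in CLA glands, against -0.10, 0.17 and 0.03 in control glands. The skeletal muscle score was 1.34, -3.30, -1.24 and -3.25 in CLA glands, against 0.90, 4.07 and 1.47 in control glands, and was highest on control replicate 2, as Arg1 was. The part of these cells in the arginase values was not tested.

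Arginine supply gave small differences. Asl, which splits argininosuccinate into arginine and fumarate, differed by only 1.23-fold between its highest and lowest array, the least of the set, with 1436, 1439, 1474 and 1281 in CLA glands, against 1321, 1381 and 1195 in control glands. Its log2 change was 0.12 ± 0.13 (SE, 95% interval -0.18 to 0.41), with a limma adjusted p of 0.991. Ass1, the synthase that joins citrulline to aspartate, has only a dim probe set of its own, with 64.6, 116, 81.9 and 68.7 in CLA glands, against 79.0, 85.7 and 85.5 in control glands (log2 change -0.05 ± 0.30, 95% interval from -0.73 to 0.63, limma adjusted p of 0.999). A brighter probe set is annotated to both Ass1 and Gm5424 and was left out by the rule. It had 1720, 2499, 2225 and 2548 in CLA glands, against 1742, 2094 and 2478 in control glands, a difference of 0.09 on the log2 scale with overlapping groups. Relative to Asl, Ddah1 was 0.34, 0.44, 0.16 and 0.47 in CLA glands, against -0.27, -0.59 and -0.55 in control glands on the centred log2 scale. That ratio is likewise a description, because Ddah1 was chosen on these values.

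Transport and further use of arginine likewise gave 0 calls. All 6 transport genes were tested, with a median log2 change of 0.04. Slc7a1, the main cationic amino acid transporter, had 0.20 ± 0.24 (SE), and Slc7a2, a transporter of the same family, 0.25 ± 0.22. Of 18 genes that use arginine or ornithine 12 were tested, with a median of 0.11. Odc1, which begins polyamine synthesis from ornithine, had 2948, 2347, 2306 and 3890 in CLA glands, against 2544, 2187 and 1799 in control glands, a log2 change of 0.38 ± 0.21 with overlapping groups. Gatm, which begins creatine synthesis from arginine, had 0.33 ± 0.21. Over all 56 genes listed around the 10, 49 were measured and 40 tested, and 0 passed in either direction. Of the 40, 2 had an unadjusted p under 0.05 (Gchfr and Cav1, both with lower signal), where 5.39% of all genes tested did. Groups were separate for 2 of the 40 (Prmt6 higher and Cav1 lower), where 5.31% of all genes tested were so. The median log2 change of the 40, 0.05, lay near that of all genes tested, 0.03, with 22 positive and 18 negative.

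**Figure D4:**
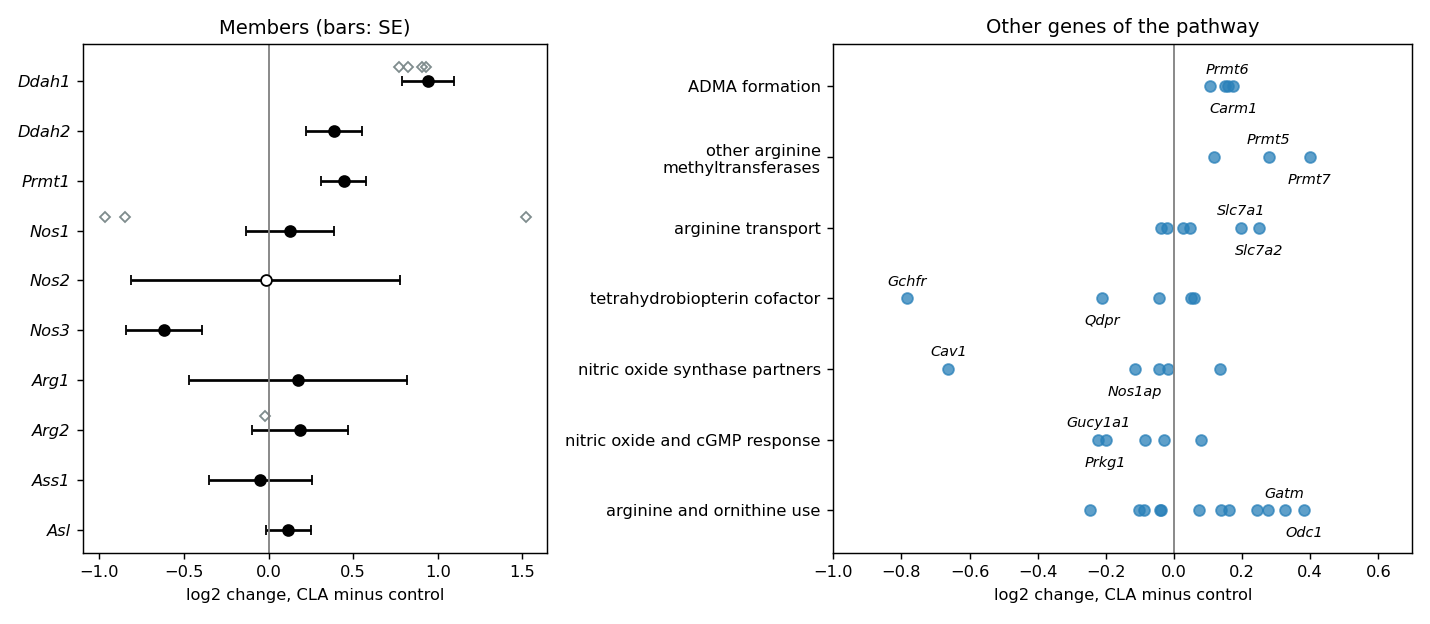
Log2 change, CLA minus control, of the 10 genes (left, filled circles with SE bars, an open circle for Nos2, which was below the filter, and open diamonds for further probe sets) and of the 40 tested genes around them by role (right, 1 point a gene, the 2 of smallest p in each role named). Ddah1 lies at 0.94 and Nos3 at -0.62, and the genes around them run from -0.78 (Gchfr) to 0.40 (Prmt7).

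Marker lists are given beside Ddah1 as well, and 0 of their genes passed over all genes. White adipocyte markers, with the summed signals and scores above, had negative changes in 10 of 10 with a median of -1.51. Skeletal muscle markers had negative changes in 11 of 11 with a median of -3.80. Groups were separate, CLA lower, for 6 of 10 adipocyte and 1 of 11 muscle markers, where 2.67% of all genes tested were so. These medians and those of endothelial (-0.32) and lymphocyte (-0.11) markers were opposite in sign to Ddah1. Medians of basal epithelial (0.63), fibroblast (0.28), macrophage (0.07) and luminal epithelial (0.01) markers had its sign. As each change is relative to the other transcripts of a gland, the signs alone were not read further. The muscle score of CLA replicate 1, 1.34, lay above that of control replicate 1, 0.90, and below that of control replicate 2, 4.07. The muscle score was therefore not lower in every CLA gland than in every control gland. Luminal epithelial markers, of which 5 of 10 had a positive change, had scores from -0.02 to 0.04 in CLA glands and from -0.10 to 0.10 in control glands, with summed signals from 94561 to 101041 in CLA glands and from 87719 to 108995 in control glands. Ddah1 minus this score was 0.39, 0.49, 0.29 and 0.41 in CLA glands, against -0.21, -0.55 and -0.83 in control glands, with separate groups. This separation is a description only, because Ddah1 was chosen for separate groups and the luminal score varied little. Basal epithelial markers had a positive change in 5 of 8. Groups were separate, CLA higher, for 2 of the 8, Krt5 (1.24) and Krt17 (1.67), where 2.64% of all genes tested were so. Krt14 (1.40), Trp63 (0.85) and Cnn1 (0.41) were also positive. Acta2 (-0.04), Oxtr (-0.09) and Myh11 (-0.59) were negative. Basal scores were 0.35, 0.35, -0.08 and 0.42 in CLA glands, against 0.09, -1.05 and -0.08 in control glands. Summed signals ran from 7636 to 9761 in CLA glands and from 4298 to 7581 in control glands. Ddah1 minus the basal score was 0.07, 0.18, 0.36 and -0.03 in CLA glands, against -0.40, 0.48 and -0.65 in control glands, and the groups overlapped because control replicate 2 has the lowest basal score. The part of fat, muscle, luminal, basal or any other cells in the Ddah1 difference was not tested. Signal of luminal, basal, adipocyte and endothelial markers was found on every array. Skeletal muscle signal differed widely between arrays. On CLA replicates 2 and 4 its sums over 11 genes were 792 and 667, too low to tell from background. Fibroblast markers had a positive change in 7 of 7, with summed signals from 55435 to 69016 in CLA glands and from 46950 to 61106 in control glands, and 0 passed. Of 8 lymphocyte markers measured only 3 passed the filter, with summed signals of all 8 from 1112 to 1769 in CLA glands and from 1400 to 1851 in control glands. CLA replicate 3 had the highest 3′ to 5′ ratio of the Actb control probe sets, 2.78, where the remaining CLA arrays had 1.41 to 1.65 and the control arrays 1.45 to 1.88. For the Gapdh control probe sets CLA replicate 3 had 1.40, the remaining CLA arrays 0.76 to 0.85 and the control arrays 0.79 to 0.97. Without CLA replicate 3 the log2 change was 0.98 for Ddah1, 0.31 for Ddah2 and 0.44 for Prmt1. For Nos3 it was -0.55 and for Nos1 0.0013.

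The genes whose signal over the 7 arrays was most like that of Ddah1, by Pearson correlation of log2 signal among 11970 tested genes, were Ptprv (0.98), Sart3 (0.98), Hs2st1 (0.97), Timp2 (0.96) and Slc35d3 (0.96). All 5 had separate groups with CLA higher, and the diet difference of Ddah1 enters this measure. By the correlation of deviations from the group means, which leaves the diet difference out, the most alike were Cbx1, Psmc5, Etfdh, Cep152 and Anapc1 (0.97 to 0.98). None of these 5 had separate groups. These correlations are the highest among 11970 genes on a small number of arrays, so such values describe these 7 arrays only.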

How the data were processed

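Total RNA from the glands of 4 CLA and 3 control mice was labelled with biotin for 1-colour Affymetrix arrays, per the labels' protocols. The authors' deposited values are linear MAS5 signal intensities, as the submitters' processing notes state; the MAS5 version is not stated there. With 2% trimmed at each end, the mean signal was 500.003 on every array, so no further scaling was applied, and each change is relative to the other transcripts of a gland. The number of arrays limits the precision.

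Signals under 1 were raised to 1 before log2. Of 45101 probe sets, 34945 had 1 gene symbol (932 several, 9160 none, 64 controls). The symbol was updated by Entrez identifier for 34741 of them through a RefSeq table of GRCm38.p6. Each gene was represented by its probe set of highest mean log2 signal. The test covered 12497 of 18193 genes, those whose mean reached 57.7, the 40th percentile over probe sets. Background makes up part of low MAS5 signals, so the size of changes in dim genes is uncertain.

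The comparison used limma 3.58.1 under R 4.3.3 (lmFit and trended eBayes, prior degrees of freedom 4.53) with diet as the only term. Two-sided p-values were adjusted over all tested genes (Benjamini-Hochberg, threshold 0.05). Intervals are at 95%. Values of Nos2 and of further probe sets come from fits without the filter. The fit was also run on simulated arrays with independent normal values for each gene. Such arrays hold no shifts shared by many genes, so this run does not bear on such shifts. Groups came from the diet in the labels, and a marker score is the mean centred log2 signal of a list.

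Members and lists were chosen with earlier results of these data known. Named genes were the 10 members, the 2 genes of smallest p of each pathway list, and the 5 genes most like Ddah1 by each measure, without clone names. Agxt2, Pecam1, Tek, Emcn, Flt1, Esam, Ptprb, Erg and the 8 basal epithelial markers were named after their values were seen. The alternatives were quantile, median and cyclic loess scaling, pseudocounts of 16 and 64, averaged probe sets, every probe set as a feature, no filter, a 60th percentile filter, untrended and robust eBayes, a block for the leading digits of the title number, the arrays of each such number, and each array left out. Start regions came from RefSeq, for 5 of the 10 members. Figures were drawn with matplotlib 3.10.9.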

Additional observations from a re-analysis of the deposited data

Results flagged for a closer look

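Among the 4 CLA arrays, 3 of 18 values tested (10 genes and 8 marker scores) had an array far from the others, by a gap to the nearest that Dixon's test puts above its 95% critical value, where chance gives about 1 in 20. Nos2 was high on CLA replicate 3 (log2 signal of 4.23), below the filter. The white adipocyte score was high on CLA replicate 4, at 0.27, the CLA array closest to control glands in Nos3. The basal epithelium score was low on CLA replicate 3, at -0.081.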

How the results depend on the processing

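Ddah1, Ddah2, Prmt1, Nos3, Arg2 and Asl kept their direction under every alternative run, and 0 of the 10 members and 0 pathway genes passed over all genes under any of the fits. The groups of Ddah1, Prmt1 and Nos3 are separate, so leaving out arrays could not reverse their direction. Ddah1 was moreover chosen on this comparison. Ddah1 ran from 0.84 to 1.05 with an array left out and from 0.87 to 1.05 under the other fits. Differences in the 27 series, which has 1 array a group and no fit, were smaller, 0.73 for Ddah1 and 0.11 for Prmt1. Prmt1 ran from 0.37 to 0.55 and Nos3 from -0.78 to -0.54 with an array left out, with limma adjusted p from 0.188 to 1.00 and from 0.364 to 1.00 over all alternatives. Within the 28 series the log2 changes of Nos1 (-0.0012), Arg1 (-0.62) and Ass1 (0.020) had the other sign, as had Ass1 with quantile normalization (0.015). With an array left out Nos1 ran from -0.045 to 0.28, Arg1 from -0.30 to 1.07 and Ass1 from -0.22 to 0.058. The cause was not tested. Over all genes, 1 gene was called higher in the 28 series, and with an array left out 0 to 2 were called higher (2 without control replicate 1) and 0 to 17 lower (17 without CLA replicate 4). By an unadjusted p under 0.05, 298 genes were higher and 376 lower, 4 members (3 of 8 tested without Ddah1, which was chosen on this comparison) and 2 pathway genes, and groups did not overlap for 330 higher and 334 lower, 3 members (2 without Ddah1) and 2 pathway genes. The shares over all genes tested were 5.39% and 5.31%, and 40 pathway genes were tested. The 60th percentile filter gave no value for Nos1, Arg2 and Ass1, the mean of probe sets none for Nos1, and Nos2 has one only without the filter. No paired analysis was possible because the labels give no one-to-one pairing of CLA with control mice. Dim genes (Nos2, Ass1 and the further Nos1 probe sets) lie near background and allow no statement on small differences.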
